A study of Mus musculus with 6 samples.

Results

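The 10 genes described here are the nuclear receptor Pparg, the GM-CSF receptor chains Csf2ra and Csf2rb, the transcription factors Bhlhe40 and Bhlhe41, and the surface and lipid handling genes Car4, Fabp1, Fabp4, Fabp5 and Plet1. They were chosen as a list of the PPARgamma and GM-CSF axis, by symbol, from the 32285 features of the count matrices, and all 10 were measured. The matrices come from CD45-positive cells, the leukocyte fraction, isolated on magnetic beads from perfused mouse lungs digested with collagenase and DNase I. There were 3 libraries from normal lung and 3 from lung infiltrated by AML, the acute leukaemia of the myeloid lineage, all made with the 10x Genomics 3' droplet kit from polyadenylated RNA. The labels give no strain, age, sex or leukaemia model, do not say which cells are leukaemic, and do not say whether replicates are separate animals. The p-values therefore measure the spread between these libraries, which may be technical.

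GM-CSF, a cytokine made in the lung mainly by the epithelium, binds a receptor made of a ligand-binding alpha chain (Csf2ra) and a signalling beta chain shared with the IL-3 and IL-5 receptors (Csf2rb). The signal switches on PPARgamma, and together they turn fetal monocytes into alveolar macrophages, the resident phagocytes of the airspace, which take up and break down surfactant lipid. Bhlhe40 and Bhlhe41 are related helix-loop-helix repressors that keep these macrophages self-renewing. Fabp1, Fabp4 and Fabp5 carry fatty acids in the cytosol, Car4 is a membrane-bound carbonic anhydrase, and Plet1 is a surface protein of alveolar macrophages.

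The genes lie on 6 autosomes. In the GENCODE annotation of GRCm38 (mm10) all are protein-coding: Pparg at chr6:115360951-115490399, Csf2ra at chr19:61223957-61228429, Csf2rb at chr15:78325752-78353847, Bhlhe40 at chr6:108660629-108666925 and Bhlhe41 at chr6:145858243-145865558. Car4 lies at chr11:84957786-84966044, Fabp1 at chr6:71199827-71205023, Plet1 at chr9:50494525-50505482, and Fabp5 (chr3:10012548-10016607) and Fabp4 (chr3:10204088-10208576) are neighbours on chromosome 3. Csf2rb has a closely related neighbour, Csf2rb2 (chr15:78282507-78305721), with which reads could be shared, so its values are uncertain in that respect.

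The RefSeq promoter table (GRCm38.p6) matched 6 of the 10 genes. Below are the bases upstream of Fabp1, Plet1, Bhlhe41 and Car4. These genes are shown since in every library, normal or AML, most of their UMIs came from alveolar macrophage-like cells. Only bases outside the annotated genes are printed, 5′ to 3′ on the gene's strand. Capitals mark AGGTCA (read on either strand, so also TGACCT), the core site that nuclear receptors such as PPARgamma bind, and CACGTG, the E-box bound by helix-loop-helix proteins.
Fabp1, chr6:71199629-71199826, plus strand: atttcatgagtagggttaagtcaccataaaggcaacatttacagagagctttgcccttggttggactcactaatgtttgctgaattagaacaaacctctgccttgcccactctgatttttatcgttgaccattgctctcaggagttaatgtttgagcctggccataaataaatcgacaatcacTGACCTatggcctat
Plet1, chr9:50494275-50494524, plus strand: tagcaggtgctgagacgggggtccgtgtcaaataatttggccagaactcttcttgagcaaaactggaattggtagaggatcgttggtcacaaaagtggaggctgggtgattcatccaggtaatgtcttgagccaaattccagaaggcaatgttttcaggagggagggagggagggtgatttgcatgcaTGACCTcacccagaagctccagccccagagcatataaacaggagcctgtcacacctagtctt
Bhlhe41, chr6:145865559-145865670, minus strand: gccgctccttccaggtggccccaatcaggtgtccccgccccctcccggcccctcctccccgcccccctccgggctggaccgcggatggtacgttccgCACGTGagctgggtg
Car4, chr11:84957504-84957753, plus strand: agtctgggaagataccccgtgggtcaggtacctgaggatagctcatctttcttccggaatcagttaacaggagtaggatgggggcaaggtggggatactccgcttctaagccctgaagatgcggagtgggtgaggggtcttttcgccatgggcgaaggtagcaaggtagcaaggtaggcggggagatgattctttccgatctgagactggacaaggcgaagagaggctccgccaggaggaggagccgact

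Over the full 250 bases before each RefSeq start, both strands searched, AGGTCA was found for Pparg, Fabp1 and Plet1 and is in 14% of all 32851 promoter windows. The ideal response element of PPARgamma, 2 exact copies of AGGTCA with 1 base between them, was in none of the 6 matched genes. It was in 0.0335% of all windows. Only exact letters were searched, so an element with a changed letter would be missed, and its absence is not shown. CACGTG was found for Bhlhe41 and is in 6.02% of all windows. GAGGAA, the core of the PU.1 site, was found for Pparg, Csf2ra and Fabp1 (23.3% of all), and the STAT site TTCNNNGAA in none of the 6 (7.02% of all). A match is a run of letters in the window and shows no binding.

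Total UMI counts per library lay between 43913245 and 66513826, but they were spread over 3967 to 10057 barcodes in normal lung and 4687 to 35391 in AML lung. The median UMI count per barcode was 2740 to 9354 in normal lung and 9381, 3979.5 and 1067 in the 3 AML libraries, so AML lung replicate 3 stood apart by depth. Any pair of libraries shared at most 118 barcodes, which is at most 1.07% of the smaller library. After filters, 70292 cells were used, of which 10335 were alveolar macrophage-like: 1008, 1176 and 1793 in normal lung and 290, 591 and 5477 in AML lung. Their median UMI counts were 25936.5, 13619.5 and 3443 in normal lung and 17995.5, 5317 and 1250 in AML lung. From here on, values are listed in the order of replicates 1, 2 and 3, with n = 3 libraries per group and ± for the SD. Levels are CPM, a gene's count scaled to the total, from the UMIs the UMIs summed over a library's cells of a kind. The sources used here do not state whether intronic reads were counted, so levels are compared between cells and libraries for 1 gene and not between genes.

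The alveolar macrophage label was given from 10 markers that are not among the genes described. High levels of these markers in the class follow from the naming and are no test of the label. Chil3, a secreted chitinase-like protein, stood at 8452, 7146 and 6122 CPM in normal and 5755, 4835 and 4619 in AML alveolar macrophage-like cells, against 127 to 751 in all other cells. Siglecf, the sialic acid receptor used to gate these cells, stood between 71.1 and 118 CPM in them and at most at 6.90 elsewhere. Ear2, of the same list, was less set apart, at 655 to 1031 CPM in them and 93.4 to 274 elsewhere. The 10 genes were left out of both the clustering genes and these markers, so their levels did not place a cell in a class. Of the class's 4 clusters, cluster 8 held deeply sequenced cells, clusters 3 and 14 shallow ones, and cluster 25 was led by cell cycle genes.

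Alveolar macrophage-like cells were 29.3%, 22.4% and 18.7% of the cells of normal lung and 6.50%, 4.68% and 15.7% of those of AML lung. The means were 23.5% ± 5.36 and 8.96% ± 5.90, with no overlap between the groups (two-sided exact permutation p = 0.1, the smallest that 3 against 3 libraries allow).

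Across 14 classes of cells, the 10 genes fell into those seen almost only in alveolar macrophage-like cells and those shared with other classes, myeloid or not. Fabp1, Plet1 and Bhlhe41 were in the first group: their ranges over libraries in alveolar macrophage-like cells did not overlap that of the next class. Fabp1 averaged 454 ± 111 CPM (n = 6 libraries, 326 to 580.0), and the next class, type 2 innate lymphoid cells (ILC2-like, 3 libraries), averaged 73.7 ± 82.4. Plet1 averaged 859 ± 202 CPM (541 to 1029), followed by ILC2-like cells at 135 ± 122 and conventional dendritic cell-like cells at 90.4 ± 65.2. Bhlhe41 averaged 109 ± 25.1 CPM (63.9 to 136), followed by interstitial macrophage-like cells at 18.0 ± 21.7 (4 libraries) and B cell-like cells at 15.8 ± 3.86.

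Car4 was shared with 1 other class. It averaged 253 ± 117 CPM (93.8 to 387) in alveolar macrophage-like cells and 235 ± 100 (142 to 406) in endothelium-like cells, where the enzyme is known from lung capillaries. The 2 ranges overlapped, and neither overlapped the third class, Ccr7 dendritic cell-like cells at 22.7 ± 26.5. Endothelial cells should be absent from a CD45-positive fraction, and 20 to 1083 endothelium-like cells per library were present all the same.

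Pparg, the nuclear receptor at the centre of the axis, was shared with nonclassical monocyte-like cells, and the order of the classes differed between the groups. Over all 6 libraries it averaged 1292 ± 356 CPM (966 to 1838) in nonclassical monocyte-like cells, the patrolling monocytes of the blood vessels, and 1089 ± 313 (574 to 1477) in alveolar macrophage-like cells, and these ranges overlapped. In normal lung alone alveolar macrophage-like cells came first (1219 ± 262 CPM against 999 ± 31.6, with overlapping libraries), and in AML lung nonclassical monocyte-like cells did (1584 ± 243 against 959 ± 355). Interstitial macrophage-like cells followed over all libraries at 940 ± 517 and ILC2-like cells at 716 ± 250, again with overlapping ranges. Fabp4, a target gene of PPARgamma in fat and macrophages, had the same 3 leading classes over all libraries: 262 ± 77.6 CPM in nonclassical monocyte-like, 236 ± 214 in interstitial macrophage-like and 215 ± 27.9 in alveolar macrophage-like cells. In normal lung alone alveolar macrophage-like cells came first for Fabp4 too (223 ± 18.8 CPM against 209 ± 16.3 in nonclassical monocyte-like cells), and there too the libraries overlapped.

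The other 4 genes were led by other classes. Csf2rb averaged 371 ± 153 CPM in Ccr7 dendritic cell-like cells, which are dendritic cells on their way to lymph nodes, 334 ± 62.2 in alveolar macrophage-like and 295 ± 43.9 in neutrophil-like cells. Its partner chain Csf2ra was nearly level over neutrophil-like (208 ± 29.5), interstitial macrophage-like (203 ± 59.2), classical monocyte-like (197 ± 19.8), nonclassical monocyte-like (177 ± 26.2) and alveolar macrophage-like cells (175 ± 20.4). All neighbours in that order overlapped. Bhlhe40 was highest in Ccr7 dendritic cell-like cells (444 ± 173), then in conventional dendritic cell-like (192 ± 43.6), NK cell-like (171.5 ± 33.5) and ILC2-like cells (167 ± 37.5). Alveolar macrophage-like cells were the fifth class at 122 ± 10.9. Fabp5 averaged 808 ± 649 CPM in Ccr7 dendritic cell-like cells (4 libraries, 390 to 1773), 400 ± 107 in alveolar macrophage-like and 399 ± 247 in interstitial macrophage-like cells.

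**Figure D1:**
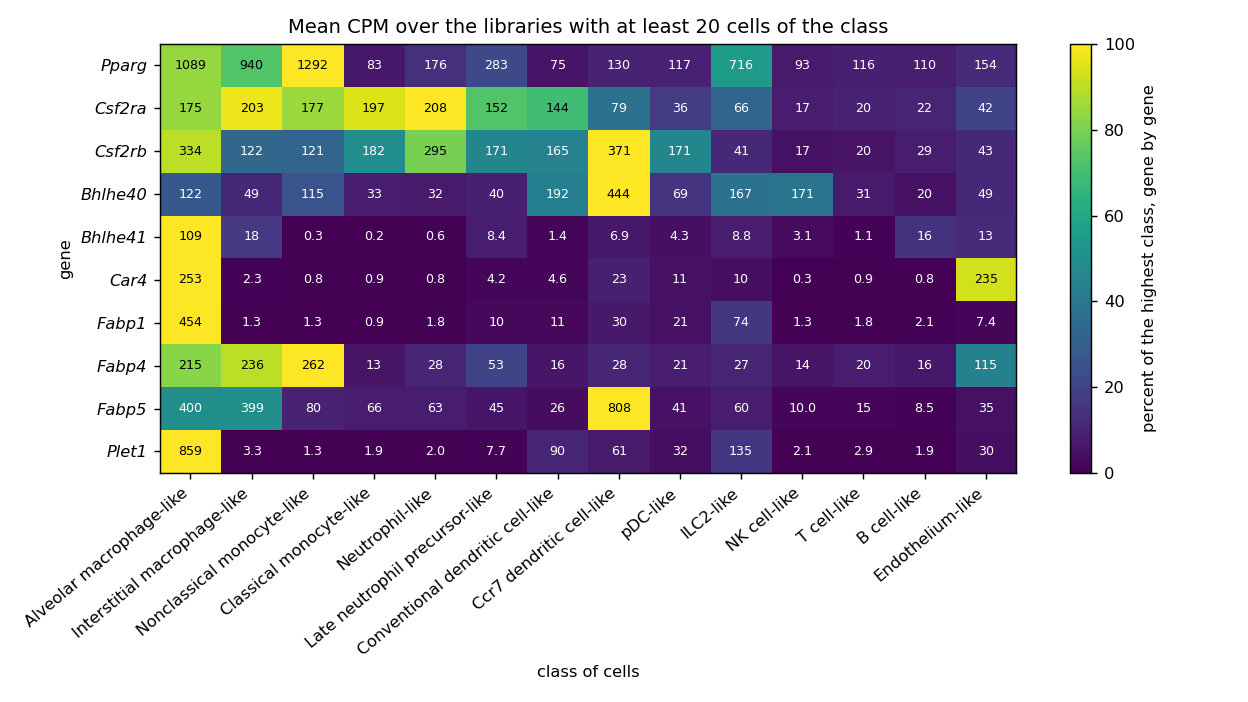
Mean CPM of each gene (rows) in each class of cells (columns) over the libraries with at least 20 cells of the class; the printed number is the mean and the colour is the percent of that gene's highest class, from dark (0) to bright (100). Fabp1, Plet1 and Bhlhe41 have 1 bright column, alveolar macrophage-like cells, Car4 has 2, and Pparg and Fabp4 are brightest in nonclassical monocyte-like cells, in means over normal and AML libraries together (in normal lung alone alveolar macrophage-like cells have the higher mean for both, with overlapping libraries).

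The same split shows in where a gene's UMIs came from. In normal lung, alveolar macrophage-like cells held 97.2% to 99.5% of the Fabp1 UMIs, 95.4% to 98.8% of Plet1, 86.0% to 97.6% of Bhlhe41 and 88.0% to 96.3% of Car4. In AML lung they held 99.5%, 91.3% and 76.2% of Fabp1 and 98.1%, 93.5% and 76.4% of Plet1. For Bhlhe41 the AML shares were 89.5%, 74.0% and 67.5%, and for Car4 97.1%, 78.4% and 63.4%. For Pparg they held 85.4%, 80.3% and 75.1% in normal lung and 12.3%, 4.66% and 29.0% in AML lung, and nonclassical monocyte-like cells held 85.0%, 85.5% and 25.7% of the Pparg UMIs of AML lung. Fabp5 went from 93.6%, 90.8% and 85.6% in alveolar macrophage-like cells of normal lung to 30.5%, 9.85% and 48.3% in AML lung. These shares move with the number of cells of each class as well as with the level in them.

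By 1 measure of likeness, the Pearson correlation of log2(CPM + 1) over 11 classes among 12233 genes, the closest genes to Fabp1 were Ear1 (r = 0.990), Acaa1b (0.990) and Cidec (0.988). Those closest to Plet1 were Dab2 (0.986), Mrc1 (0.985) and Kcnip4 (0.984), and to Bhlhe41 C77080 (0.947), Mcoln3 (0.929) and Ralgds (0.926). Car4 was close to Wwtr1 (0.998) and Cpne8 (0.985). Pparg and Fabp4 shared 2 of their 3 closest genes: Lilra5 (0.963 and 0.944) and Nr1h3, the liver X receptor alpha (0.903 and 0.938), with Abhd12 (0.896) and Phlda3 (0.951) as the others. Csf2ra was closest to Rab32 (0.958), Card9 (0.955) and Il13ra1 (0.950), and Csf2rb to Gabarap (0.950), Slc6a6 (0.946) and Atp6v0c (0.926). Fabp5 was closest to Cstb (0.921), Slc6a6 (0.918) and Ftl1-ps1 (0.909), and Bhlhe40 to Rgs1 (0.916), Nup62 (0.866) and Dynll2 (0.863). Among the 10 genes themselves the closest pairs were Fabp1 with Plet1 (0.953) and Pparg with Fabp4 (0.915). The classes come from the same 6 libraries, so these values are descriptions.

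Within alveolar macrophage-like cells the 10 genes were compared between AML and normal lung. By edgeR's quasi-likelihood test with Benjamini-Hochberg adjustment over 12224 genes, none of the 10 genes passed an adjusted p of 0.05. Only 4 genes of all (0.0327%) did, each higher in AML lung: Lcn2 and S100a8, which neutrophils make, Prtn3, a protease of immature myeloid cells, and Dmkn. At an unadjusted p under 0.05 there were 1652 genes, 4 of them among the 10 and all lower in AML lung (Csf2rb, Car4, Fabp5 and Plet1). DESeq2 called 308 genes (2.52%, 1.06% lower), with Car4 and Fabp5 among the lower ones. The median log2 change of the 10 genes was -0.31, against 0.019 over all tested genes, and 9 of the 10 were negative.

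Car4 had the largest difference. Its level was 316, 357 and 387 CPM in normal lung and 194, 93.8 and 171.5 in AML lung. The groups did not overlap, AML lung replicate 2 being the lowest, and the means were 353 ± 35.3 and 153 ± 52.6. The log2 change was -1.21 (SE 0.263, adjusted p = 0.292 by edgeR and 0.000829 by DESeq2).

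Fabp5, the epidermal fatty acid binding protein, stood at 461, 485 and 532 CPM in normal lung and 343, 269 and 309 in AML lung. Again no AML library reached the lowest normal one. The means were 492 ± 36.2 and 307 ± 37.3, with a log2 change of -0.69 (SE 0.126, adjusted p = 0.282 by edgeR and 0.000124 by DESeq2).

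Plet1 was even across normal lung at 1022, 1011 and 1029 CPM and stood at 849, 541 and 704 in AML lung. The log2 change was -0.56 (SE 0.170, adjusted p = 0.313 by edgeR and 0.0507 by DESeq2). The signalling chain Csf2rb stood at 384, 399 and 365 CPM in normal lung and 339, 269 and 249 in AML lung, a log2 change of -0.44 (SE 0.128, adjusted p = 0.300). Neither gene overlapped between the groups. In all, 4 of the 10 genes were lower without overlap, where 9.36% of all tested genes were, and none was higher without overlap, where 10.1% were.

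For the other 6 genes the groups overlapped. Pparg itself stood at 953, 1227 and 1477 CPM in normal lung and 1029.8, 574 and 1274 in AML lung, with only AML lung replicate 2 below the normal range (log2 change -0.36, SE 0.314, adjusted p = 0.628). Csf2ra was 199, 189 and 176 CPM against 164, 181 and 141 (log2 change -0.23, SE 0.105, adjusted p = 0.402). Fabp1 was 497, 566 and 412 CPM against 580.0, 326 and 341, so its highest and its lowest value were both in AML lung (log2 change -0.26, adjusted p = 0.652). Fabp4 (log2 change -0.13), Bhlhe41 (-0.13) and Bhlhe40 (0.04) had adjusted p-values of 0.709, 0.836 and 0.909. For Bhlhe41 the AML libraries spread from 63.9 to 136 CPM around a normal range of 98.8 to 123.

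**Figure D2:**
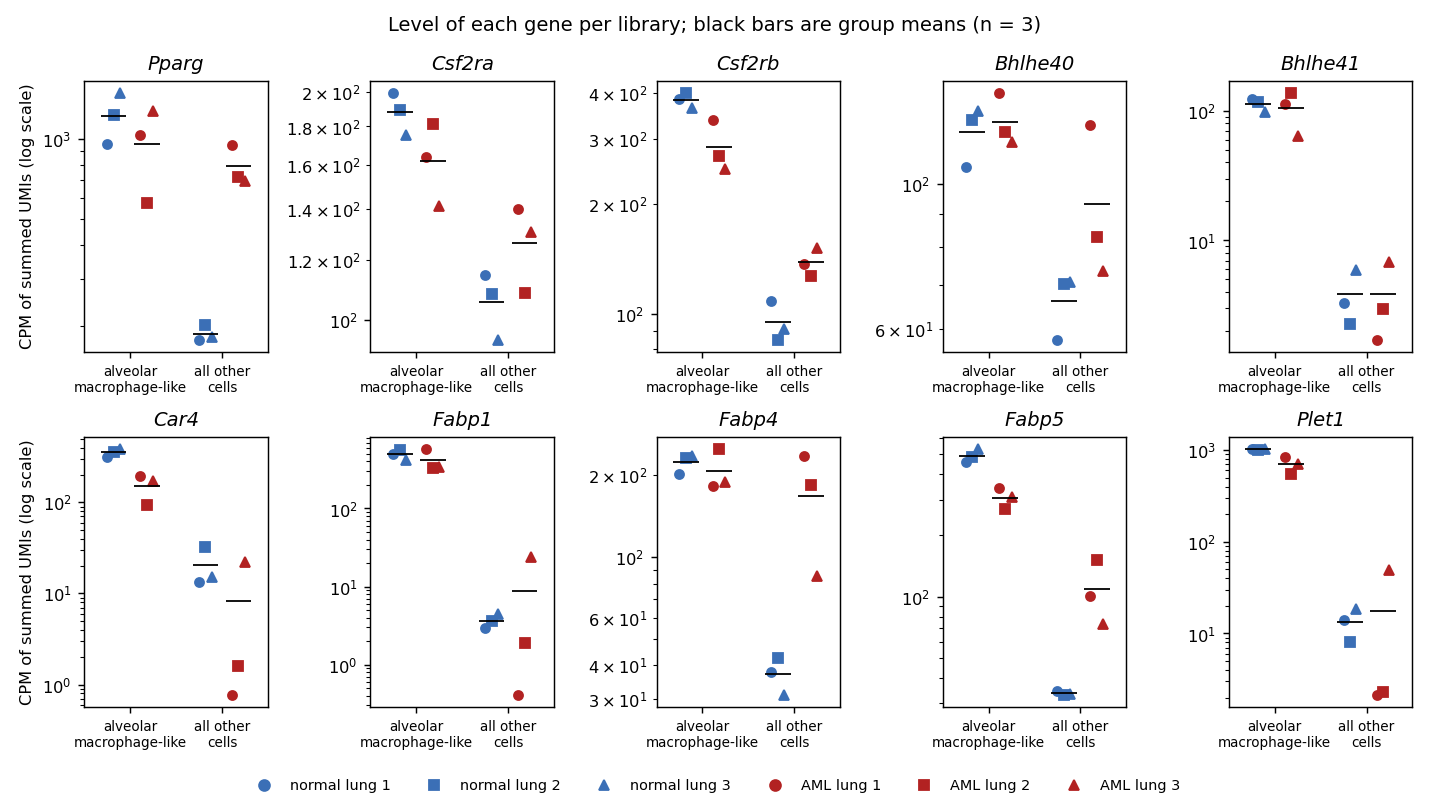
CPM of each gene per library (log scale) in alveolar macrophage-like cells and in all other cells, normal and AML lung, with black bars at the group means. In alveolar macrophage-like cells the AML points of Car4, Fabp5, Plet1 and Csf2rb lie below all normal points, and in all other cells those of Pparg, Fabp4, Fabp5, Csf2rb and Bhlhe40 lie above them.

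These values move with 1 library. Without AML lung replicate 1, edgeR called 231 genes, among them Csf2rb (log2 change -0.61, adjusted p = 0.0496) and Fabp5 (-0.81, adjusted p = 0.0432), and Car4 and Plet1 were at adjusted p = 0.0589 and 0.0596. Leaving out any other single library called no member.

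Markers of other cells moved in the same comparison. The 7 neutrophil markers were all positive, with a median log2 change of 1.35, 1 call and a summed level of 98.1, 81.2 and 128 CPM in normal against 436, 513 and 766 in AML lung. The 8 nonclassical monocyte markers were all positive too (median 1.93, none called), with a summed level of 198, 222 and 283 against 287, 515 and 887 CPM. Of the 6 classical monocyte markers 5 were positive (median 4.55), with a summed level of 460 to 788 against 478 to 1031 CPM. The 10 alveolar macrophage markers themselves summed to 15167, 13943 and 13009 CPM in normal and 11836, 9196 and 9490 in AML lung, with 9 of 10 negative, a median of -0.46 and none called. Prg2 and Epx (eosinophil), Mcpt8, Fcer1a and Ms4a2 (basophil or mast cell), Il13 and Il5 (ILC2) and Col1a1 (fibroblast) were at 0 in these cells. The part of other cells' RNA in the members' values was not tested.

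Depth moved with the comparison as well. The deep cluster held 90.5%, 82.7% and 42.7% of the alveolar macrophage-like cells of normal lung and 81.7%, 43.5% and 4.73% of those of AML lung, and in AML lung replicate 3 the shallow clusters held 91.1%. Within the deep cluster alone, no gene of 10984 passed. Car4 there stood at 321, 378 and 426 CPM in normal and 217, 131 and 303 in AML lung (log2 change -0.81, adjusted p = 0.305), so its difference was smaller than over the whole class and still without overlap, as for 9.44% of the genes tested in the class. Fabp5 stood at 466, 488 and 570 against 352, 341 and 413 CPM (-0.45, adjusted p = 0.305) and also did not overlap. Plet1, at 1038, 1054 and 1129 against 924, 719 and 1156 CPM, did overlap (-0.19). Csf2rb changed by -0.23 on the log2 scale. In the same cluster Bhlhe40 was higher without overlap (7.22% of genes were), at 108, 123 and 135 against 146, 142 and 180.4 CPM (log2 change 0.35, unadjusted p under 0.05 only).

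Among cells of the class with at least 3000 UMIs, which removes most shallow cells of AML lung replicate 3, the log2 changes were close to those of the whole class. Car4 was at -1.19 (adjusted p = 0.173), Fabp5 at -0.68 (adjusted p = 0.160), Plet1 at -0.56 and Csf2rb at -0.45.

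In the cycling cluster, 34 to 228 cells per library, 6 of the 10 genes were lower in AML lung without overlap (Bhlhe41, Car4, Fabp1, Fabp4, Fabp5 and Plet1), where 11.2% of the genes tested in the class were; these genes are named after their values were seen. Car4 stood at 275, 209 and 204 CPM in normal and 105, 10.2 and 95.3 in AML lung. Plet1 stood at 789.7, 722 and 744 against 466, 63.1 and 358 CPM, and Fabp1 at 380.0, 316 and 381 against 225, 63.1 and 149. AML lung replicate 2, with 43 such cells, was lowest for each of these. With finer clustering (resolution 2) the cycling alveolar macrophage-like cluster held 6 cells of that library. With the 10 genes kept among the variable genes it held 25. Which of that library's cells fall in this cluster thus depended on the clustering. In the shallow clusters, which in AML lung replicate 1 held 19 cells, the groups overlapped for Car4 (92.3, 165 and 309 against 113, 65.7 and 163 CPM), Plet1 and Fabp5. Without the cycling cluster the changes over the class were -1.15 for Car4, -0.63 for Fabp5, -0.47 for Plet1 and -0.42 for Csf2rb, none called.

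**Figure D3:**
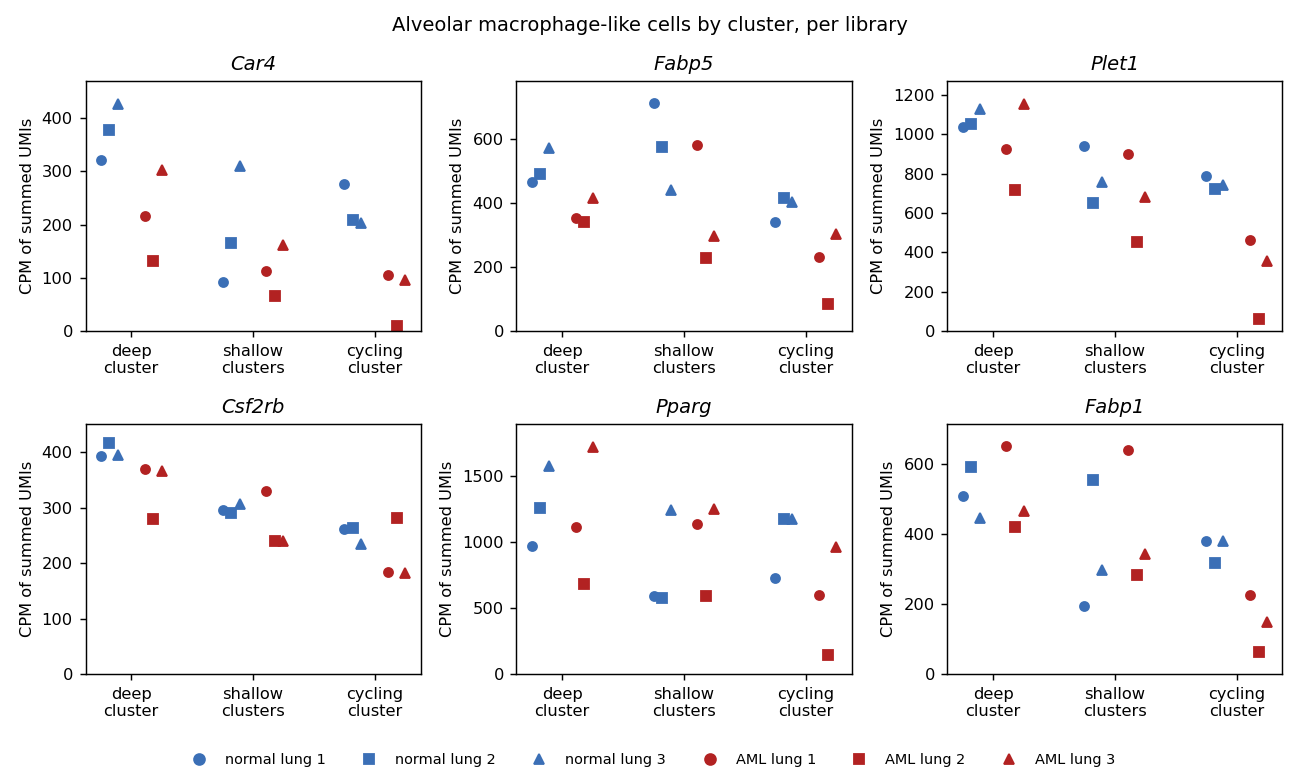
CPM of Car4, Fabp5, Plet1, Csf2rb, Pparg and Fabp1 per library in the deep, the shallow and the cycling clusters of alveolar macrophage-like cells. In the deep cluster the AML points of Car4, Fabp5 and Csf2rb lie below the normal points; the shallow point of AML lung replicate 1 rests on 19 cells.

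Shares of cells with at least 1 UMI were compared after each cell was thinned to 1000 UMIs (cells with fewer left out: 31, 38 and 422 in normal lung and 0, 78 and 2015 in AML lung). Car4 was found in 23.4%, 24.6% and 26.5% of thinned alveolar macrophage-like cells of normal lung and in 14.1%, 6.04% and 13.5% of those of AML lung (two-sided exact permutation p = 0.1). Plet1 was found in 61.5%, 57.1% and 57.1% against 54.8%, 39.6% and 44.2%, and Fabp5 in 31.3%, 32.3% and 31.7% against 30.3%, 21.8% and 23.7% (exact permutation p = 0.1 each). For Csf2rb the shares were 29.9%, 29.3% and 27.1% against 27.9%, 23.8% and 20.9% (exact permutation p = 0.2). An exact permutation test of 3 against 3 libraries cannot go below p = 0.1.

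Without thinning, Car4 was found in 82.0%, 72.0% and 53.7% of the normal and 75.2%, 28.6% and 18.8% of the AML cells (exact permutation p = 0.3). In B cell-like cells thinned shares were at most 0.103% for Car4, 0.481% for Plet1 and 1.93% for Fabp5. Their median depths before thinning were 2601 to 7091 UMIs in normal and 940 to 6479 in AML lung. For these 3 genes the shares in alveolar macrophage-like cells were far above those of B cell-like cells. For Csf2rb and Pparg the B cell-like share was higher in 1 library. In normal lung Csf2rb stood at 15.3, 13.4 and 23.6 CPM in B cell-like and 1.21, 1.35 and 3.17 in NK cell-like cells. Its B cell-like share is therefore not taken as background. For Csf2rb the B cell-like share was 0.928% to 2.07% in 5 libraries and 8.37% in AML lung replicate 3, against 20.9% in the alveolar macrophage-like cells of that library. For Pparg it was 0.200% to 4.89% in 5 libraries and 30.7% in AML lung replicate 3, against 63.4%. The remaining 6 genes had exact permutation p-values from 0.4 to 1. For Pparg the shares were 55.1%, 60.9% and 66.9% against 61.7%, 38.0% and 63.4%.

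In the genes around the axis, none passed the threshold within alveolar macrophage-like cells. Of 13 GM-CSF signalling genes 10 were tested, 6 positive and 4 negative, with a median log2 change of 0.19, and Il3 and Il5 were at 0. The 3 with the smallest p were Csf2rb2, the second beta chain, at 39.5, 38.7 and 29.7 CPM in normal and 24.3, 32.3 and 23.1 in AML lung (adjusted p = 0.338), Spi1, which encodes the myeloid factor PU.1, at 348, 359 and 337 against 382, 437 and 447 (adjusted p = 0.350), and the signal transducer Stat5a (log2 change -0.24, adjusted p = 0.523). Spi1 did not overlap and was higher in AML lung, the opposite side from Csf2rb.

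Of 24 PPARgamma partners and lipid handling genes 23 were tested, 17 negative and 6 positive, with a median of -0.13. Without overlap, 9 were lower and 1 higher, where 9.36% and 10.1% of all tested genes were. Rxra, the partner with which PPARgamma binds DNA, stood at 109, 103 and 112 CPM in normal and 81.8, 65.8 and 75.8 in AML lung (log2 change -0.54, adjusted p = 0.282). Cidec, a lipid droplet protein, stood at 227, 222 and 236 against 187, 138 and 155 CPM (-0.53, adjusted p = 0.292). Abca1, the cholesterol exporter, stood at 222, 168 and 197 against 126, 74.7 and 121 CPM (-0.87, adjusted p = 0.292). All 3 were lower without overlap, as Fabp5 was.

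Of 10 TGF-beta genes, the other signal that these macrophages need, 8 were tested with a median of 0.06. Tgfb2 (log2 change -1.20, adjusted p = 0.292) and the receptors Tgfbr2 (-0.26, adjusted p = 0.382) and Tgfbr1 (-0.25, adjusted p = 0.409) were lower without overlap, where 9.36% of all tested genes were. Among 12 fate transcription factors, 9 were positive (median 0.39). Cebpa, needed for alveolar macrophages, stood at 163, 169 and 162 CPM in normal and 97.1, 74.1 and 101 in AML lung (-0.87, adjusted p = 0.273). Nr4a1, needed for nonclassical monocytes and one of their markers above, stood at 138, 163 and 192 against 201, 273 and 267 CPM (0.57, adjusted p = 0.315).

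All 10 cell cycle genes were positive (median 0.61), led by Ube2c (1.10, adjusted p = 0.297), Birc5 (0.95, adjusted p = 0.335) and Cenpf (0.89, adjusted p = 0.358). Of 9 dissociation and heat shock genes 8 were positive (median 0.32), led by Junb (0.54, adjusted p = 0.335), Jun (0.34, adjusted p = 0.356) and Atf3 (0.36, adjusted p = 0.420).

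Outside alveolar macrophages the axis looked different. Over all other cells, 4 of the 10 genes rose in AML lung (Pparg, Fabp4, Fabp5 and Csf2rb) and none fell, by edgeR with Benjamini-Hochberg adjustment over 16216 genes, of which 2444 (15.1%) passed and 9.08% rose. DESeq2 called 6 of the 10 as higher, where it called 22.5% of all genes and 12.6% as higher.

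Pparg stood at 178, 202 and 181 CPM in all other cells of normal lung and at 949, 719 and 697 in AML lung, a level close to that of alveolar macrophage-like cells. The groups lay far apart (log2 change 2.26, SE 0.156, adjusted p = 0.00731). Fabp4 stood at 37.9, 42.7 and 31.1 against 235, 184 and 85.1 CPM (2.36, SE 0.361, adjusted p = 0.0132). Fabp5 was nearly constant in normal lung at 34.6, 33.0 and 33.3 CPM and reached 101, 151 and 74.0 in AML lung (1.88, SE 0.245, adjusted p = 0.0112). Csf2rb rose less, from 108, 85.1 and 91.1 to 137, 127 and 152 CPM (0.73, SE 0.125, adjusted p = 0.0163). Bhlhe40 (57.8, 70.3 and 70.7 against 123, 83.0 and 73.6 CPM, adjusted p = 0.0661) and Csf2ra (115, 108 and 94.4 against 140.1, 109 and 131, adjusted p = 0.0678) did not pass. All but Csf2ra of these 6 were higher without overlap, where 11.5% of all genes were.

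The calls depend on single libraries. Without normal lung replicate 2 or without replicate 3 no gene of all passed, with adjusted p-values of the 4 genes between 0.052 and 0.077. Without normal lung replicate 1, Fabp4 (adjusted p = 0.0553) and Fabp5 (0.0508) missed the threshold, and without AML lung replicate 1 Csf2rb did (0.0504).

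The genes seen mostly in alveolar macrophage-like cells did not follow. In all other cells Fabp1 stood at 2.95, 3.62 and 4.39 CPM in normal and 0.406, 1.90 and 23.9 in AML lung, Plet1 at 14.1, 8.001 and 18.3 against 2.13, 2.30 and 48.8, and Car4 at 13.2, 32.6 and 15.3 against 0.765, 1.59 and 22.1. AML lung replicate 3 was the highest or near the highest for all 3 and the other AML libraries were the lowest. Without it, Car4 fell by 3.88 on the log2 scale (adjusted p = 0.00327), Plet1 fell by 2.41 (adjusted p = 0.00447) and Fabp1 was at -1.44 (adjusted p = 0.0989), and with it none passed. The alveolar macrophage marker Mrc1 was also highest in AML lung replicate 3 and lowest in the other AML libraries in these cells, with 28.3, 28.4 and 49.8 CPM in normal and 10.8, 9.57 and 149 in AML lung. Clusters left unnamed count among all other cells. In AML lung replicate 3 their cells held 17.0% of the Fabp1, 17.3% of the Plet1 and 17.8% of the Car4 UMIs. In the other libraries they held at most 1.66%, 1.40% and 1.13%. They were 5486 of the 34922 cells of AML lung replicate 3. Over all 10 genes their part of that library's UMIs ran from 13.7% (Pparg) to 18.6% (Bhlhe41), so it was not particular to these 3. Unnamed cluster 17, with 1346 of its 1475 cells from AML lung replicate 3, scored highest for neutrophil and next for alveolar macrophage markers. What share of these UMIs came from alveolar macrophages was not tested.

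Nonclassical monocyte-like cells, which also carry Pparg and Fabp4, were 13.6%, 14.4% and 10.5% of all other cells in normal lung and 54.4%, 42.1% and 16.7% in AML lung. Their 8 markers summed to 1426, 1415 and 1215 CPM over all other cells of normal lung and 3451, 2630 and 2023 in AML lung. With these cells left out, Pparg stood at 38.0, 45.2 and 68.2 against 69.6, 142 and 516 CPM, and Fabp4 at 7.59, 6.94 and 9.34 against 26.5, 44.2 and 63.3. Fabp5 stood at 35.3, 31.9 and 34.5 against 74.4, 103 and 76.1 CPM. All 3 genes were still higher in AML lung without overlap. So was Csf2rb, at 107.5, 82.0 and 88.6 against 109.6, 123 and 157 CPM, and the remaining genes of the list overlapped. The share of all genes that were higher without overlap in this set of cells was not computed. Fewer cells of a type and less RNA per cell cannot be told apart in sums over mixed cells such as these.

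Lymphocytes carried part of the Pparg signal. In B cell-like cells Pparg stood at 1.09, 3.55 and 17.1 CPM in normal and 9.69, 76.3 and 550.4 in AML lung, and in T cell-like and NK cell-like cells of AML lung replicate 3 at 466 and 423. The nonclassical monocyte markers Ace (1.37, 1.46 and 10.5 against 5.42, 23.1 and 117 CPM) and Treml4 (0, 1.04 and 5.52 against 4.26, 24.9 and 116) stood in the same order over the 6 libraries of B cell-like cells. All 3 genes were highest there in AML lung replicate 3, the library with the shallowest cells. The part of free RNA in these values was not tested.

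The difference between the 2 comparisons was tested directly, as the AML change in alveolar macrophage-like cells minus that in all other cells, with the library as a term (edgeR, 16125 genes, 829 or 5.14% past the threshold, 4.46% lower). The change was smaller in alveolar macrophage-like cells for Pparg (-2.73 on the log2 scale, adjusted p = 0.0211), Fabp5 (-2.58, adjusted p = 0.0209), Fabp4 (-2.45, adjusted p = 0.0330) and Csf2rb (-1.25, adjusted p = 0.0237). Csf2ra (-0.74, adjusted p = 0.0674) and Bhlhe40 (-0.67, adjusted p = 0.0702) did not pass, nor did Car4 (1.03), Plet1 (0.35), Fabp1 (-0.24) and Bhlhe41 (-0.29). No gene of all passed without normal lung replicate 1, 2 or 3 or without AML lung replicate 2.

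**Figure D4:**
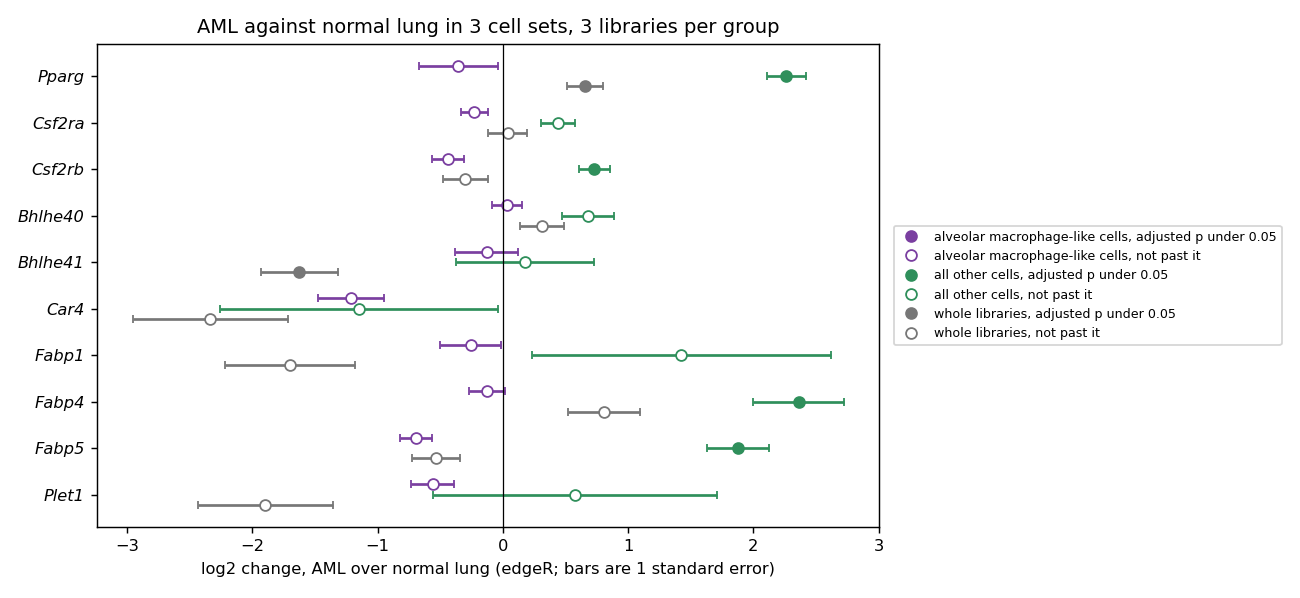
Log2 change, AML over normal lung, of each gene in alveolar macrophage-like cells, in all other cells and in whole libraries by edgeR, with bars of 1 standard error and filled points past an adjusted p of 0.05. Pparg, Fabp4, Fabp5 and Csf2rb lie right of 0 in all other cells, between 0.73 and 2.36, and left of 0 in alveolar macrophage-like cells, between -0.69 and -0.13.

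Nonclassical monocyte-like cells are described by cluster, and the fit that was made of the class is not reported as a comparison, since cluster 15 was led by Apoe, a macrophage marker, and by none of its own markers. Cluster 15 held 87.9%, 85.3% and 66.4% of the class in normal lung, cluster 0, led by Spic, held 92.4% and 86.4% of it in AML lung replicates 1 and 2, and the shallow cluster 2 held 82.4% of it in AML lung replicate 3. Pparg stood at 914, 955 and 981 CPM in cluster 15 of normal lung and at 1123 and 1086 in AML lung replicates 1 and 3, where replicate 2 had only 14 cells. In cluster 0, which held 21, 35 and 46 cells in normal lung, Pparg stood at 1545, 1727 and 1351 CPM against 1577, 1354 and 2052 in AML lung, so the groups overlapped. In cluster 2 it stood at 1344 and 1240 in normal lung replicates 2 and 3 against 1778, 1517 and 1859.

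Fabp5 varied more between libraries within a cluster. In cluster 0 it stood at 30.2, 21.6 and 37.9 CPM in normal lung and at 123, 207 and 98.9 in AML lung, without overlap. The normal values rest on 21, 35 and 46 cells and so on few UMIs. The share of all genes without overlap in this cluster was not computed. In cluster 15 it stood at 31.4, 37.8 and 23.0 against 25.3 and 37.3, with overlap. Fabp4 in cluster 0 was 438, 286 and 185 CPM against 382, 340.0 and 222, with overlap. Car4, Fabp1, Plet1 and Bhlhe41 averaged under 1.34 CPM over the class. No test of single clusters was made, and the clusters were set by genes other than these.

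**Figure D5:**
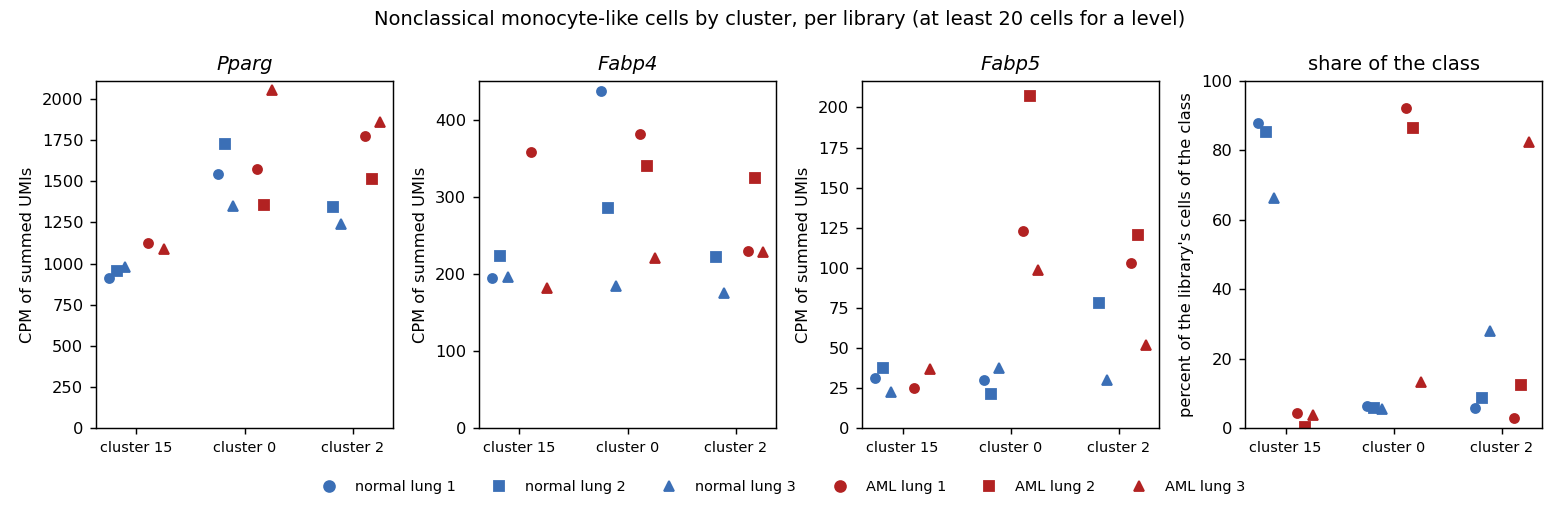
CPM of Pparg, Fabp4 and Fabp5 per library in clusters 15, 0 and 2 of nonclassical monocyte-like cells, where a library has at least 20 cells, and, at the right, the percent of a library's cells of the class in each cluster. Pparg of normal cells is at 914 to 981 CPM in cluster 15 and at 1351 to 1727 in cluster 0.

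In classical monocyte-like cells, the inflammatory monocytes of the blood, 2 of the 7 members tested rose in AML lung, where 237 of 10403 genes (2.28%) passed by edgeR and 1.32% rose. Fabp4 stood at 6.29, 2.80 and 6.56 CPM in normal and 22.02, 16.3 and 26.1 in AML lung (log2 change 2.04, SE 0.325, adjusted p = 0.0212). Csf2rb stood at 133, 140.1 and 163 against 220.2, 219 and 217 CPM (0.60, SE 0.124, adjusted p = 0.0425). Neither gene overlapped between the groups, and the share of all genes without overlap in this class was not computed. For Fabp4 the class had the lowest mean of the 14 classes, at 13.4 ± 9.53 CPM over both groups. B cell-like cells of AML lung stood at 6.59, 23.3 and 62.5 CPM of Fabp4. The part of free RNA in these values was not tested. Bhlhe40 (log2 change 1.33, adjusted p = 0.0852), Pparg (1.26, adjusted p = 0.188), Fabp5 (1.07, adjusted p = 0.135), Csf2ra (-0.18, adjusted p = 0.416) and Plet1 (-1.16, adjusted p = 0.396) did not pass, and Bhlhe41, Car4 and Fabp1 were too low to be tested. With single libraries left out the count of genes ran from 0 to 1098, and Fabp4 was called in 3 and Csf2rb in 1 of these 6 fits. The changes of alveolar macrophage-like and classical monocyte-like cells did not differ past the threshold for any of 11973 genes, with Csf2rb at -1.07 (adjusted p = 0.0704) and Fabp4 at -2.18 (adjusted p = 0.0894). Without AML lung replicate 1, 787 genes did, among them Csf2rb (-1.20, adjusted p = 0.0100) and Fabp4 (-2.07, adjusted p = 0.0437).

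In neutrophil-like, B cell-like, T cell-like, NK cell-like, endothelium-like and dendritic cell-like cells edgeR called none of the 10 genes, in neutrophil-like cells 0.0244% of all genes and in the others none. At an unadjusted p under 0.05 the members numbered 2 to 7 of those tested in each class, where 4.38% to 17.1% of all genes were; the 7, of 9 tested, were in endothelium-like cells (17.1%). All of these 7 but Car4 were higher in AML lung, with log2 changes from 1.75 (Bhlhe40) to 4.54 (Fabp4). In endothelium-like cells Car4 stood at 286, 406 and 248 CPM in normal and 142, 158 and 173 in AML lung. It was lower without overlap, as in alveolar macrophage-like cells (log2 change -0.98, adjusted p = 0.121 by edgeR). The share of all genes lower without overlap in endothelium-like cells was not computed. AML lung replicate 1 had 20 such cells.

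Over whole libraries, every deposited barcode included, Pparg rose in AML lung, from 572, 602 and 534 to 949, 709 and 802 CPM (log2 change 0.65, SE 0.142, adjusted p = 0.0382). Bhlhe41 fell, from 64.7, 47.5 and 30.8 to 14.4, 10.8 and 17.5 CPM (-1.62, SE 0.305, adjusted p = 0.0276). By edgeR 1669 of 16856 genes (9.90%) passed. Car4 stood at 168, 158 and 116 against 24.1, 6.92 and 49.5 CPM (-2.34, adjusted p = 0.0555), Plet1 at 527, 404 and 293 against 99.2, 33.5 and 170 (-1.89, adjusted p = 0.0656) and Fabp1 at 257, 224 and 114 against 66.3, 20.7 and 81.9 (-1.70, adjusted p = 0.0783). Fabp5 stood at 255, 212 and 169 against 129.8, 157 and 117 CPM, also without overlap (-0.53, adjusted p = 0.111). Fabp4 (0.81, adjusted p = 0.111), Bhlhe40 (0.31, adjusted p = 0.270), Csf2rb (-0.30, adjusted p = 0.306) and Csf2ra (0.04, adjusted p = 0.890) overlapped.

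So the genes seen mostly in alveolar macrophage-like cells stood lower in AML lung over whole libraries, Bhlhe41 past the threshold and Car4, Plet1 and Fabp1 not. In these sums the class gave 52.2%, 40.1% and 27.1% of the UMIs of normal lung cells and 11.5%, 5.78% and 18.3% of those of AML lung (means 39.8% ± 12.6 and 11.8% ± 6.26, exact permutation p = 0.1). Without normal lung replicate 2 no gene passed. Of 10 alternatives, 5 kept the calls of Pparg and of Bhlhe41.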

How the data were processed

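The authors deposited raw UMI counts, 1 matrix of genes by barcodes per library, for 3 normal and 3 AML lungs. The submitters' processing notes name Cell Ranger 7.0.0 and mm10; the filter that left the 73095 deposited barcodes, and whether intronic reads were counted, are not stated in those notes or the labels.

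The 71634 barcodes kept had 200 or more genes, 500 or more UMIs and less than 10% of UMIs from mitochondrial genes, and doublets were removed with Scrublet, which left 70292 cells. Its own threshold marked no cell in 3 libraries, where the median threshold of the other 3 was used, a choice made after seeing those calls. Cells were clustered with scanpy 1.11.5 (2000 variable genes without the 10 genes, 30 principal components, 15 neighbours, Leiden resolution 1) and 30 clusters were named from 22 marker lists where at least 3 markers were raised; 5 stayed unnamed. Classes called by such names are rebuilt here and may differ from the study's own. The nonclassical monocyte-like class was fitted and thinned like the others, but those tests are not reported and the class is given by cluster, because 1 of its clusters had a marker of another class and none of its own among its leading genes.

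UMI counts were summed per library and class (at least 20 cells) and tested with edgeR 4.0.16 (quasi-likelihood F test, TMM, filterByExpr, no covariate, Benjamini-Hochberg over all tested genes at 0.05). The difference between cell sets had the library as a term. Shares of cells were compared by exact permutation over 20 arrangements. CPM use plain UMI totals, whereas log2 changes use TMM factors. Steps were tested on simulated data. DESeq2 1.42.0, other filters, cluster settings, a replicate block and leaving out each library were the alternatives; the deep cluster alone, at least 3000 UMIs per cell and the repeats for classical monocytes were added after seeing the data. Same-group libraries differed beyond sampling noise and each counts as 1 sample. All 10 genes are named in the main comparisons, with the 3 smallest p of each pathway list and the 3 closest genes by likeness, except for items not reported here. The genes and lists were chosen with earlier results of these data known.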

Additional observations from a re-analysis of the deposited data

Results flagged for a closer look

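For 4 of the 10 genes the AML change differed between alveolar macrophage-like cells and all other cells in the test of the difference itself (edgeR, adjusted over 16125 genes, of which 829 passed). The difference on the log2 scale was -2.73 for Pparg (adjusted p = 0.0211), -1.25 for Csf2rb (0.0237), -2.45 for Fabp4 (0.0330) and -2.58 for Fabp5 (0.0209). For each gene the change was positive over all other cells and negative, not past the threshold, in alveolar macrophage-like cells. None of the 4 passed without normal lung replicate 1, 2 or 3 or without AML lung replicate 2. Nonclassical monocyte-like cells made up 10.5% to 14.4% of all other cells in normal and 16.7% to 54.4% in AML lung, and their part in the difference was not tested.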

How the results depend on the processing

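In alveolar macrophage-like cells edgeR called 4 genes. DESeq2 called 308 (58.1% higher), no low count filter gave 18, and finer clustering (resolution 2), the 10 genes kept among the variable genes, the noncycling cells alone and the deep cluster alone gave 0 each (1652 at an unadjusted p under 0.05 in the main analysis). The deep cluster without AML lung replicate 3 gave 26, and leaving out 1 library gave 0 to 231. Size factors of another kind, a stricter cell filter, doublets kept and at least 3000 UMIs per cell gave counts within 1.5 times of 4. Over all other cells (2444) at least 3000 UMIs gave 1283 and leaving out 1 library 0 to 4567. For the difference between the cell sets (829, 13.3% higher) the counts were 2447 by DESeq2 (39.4% higher), 550 with RLE size factors, 393 without the low count filter, 516 with stricter cells, 506 with doublets kept, 1692 for the deep cluster, 288 for at least 3000 UMIs, 2692 for the deep cluster without AML lung replicate 3 and 0 to 833 without 1 library. Whole libraries (1669, 62.4% higher) gave 3493 by DESeq2 (51.5% higher) and 0 to 3122 without 1 library, and classical monocyte-like cells (237) gave 0 to 1098. The cause of these shifts was not tested.

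The following log2 changes turned sign. In alveolar macrophage-like cells Bhlhe40 (0.036) was -0.023 without the low count filter, -0.00056 with stricter cells and -0.074 to 0.075 without 1 library. Bhlhe41 was 0.138 in the deep cluster, 0.303 there without AML lung replicate 3, 0.0783 there with the replicate block and -0.357 to 0.120 without 1 library. Fabp1 was 0.0120 in the deep cluster and 0.0687 there without AML lung replicate 3. Fabp4 was 0.105 in the deep cluster, 0.0763 there without AML lung replicate 3 and 0.0938 there with the replicate block. Over all other cells Bhlhe41 was -0.0613 with doublets kept and -0.521 to 0.648 without 1 library, Fabp1 -0.182 with the replicate block and -1.44 to 1.96 without 1 library, and Plet1 -0.896 with the block and -2.41 to 1.07 without 1 library. For the difference, Bhlhe41 was 0.0763 with doublets kept, 0.704 in the deep cluster without AML lung replicate 3 and -0.769 to 0.666 without 1 library. Fabp1 was 0.0749 by DESeq2, 0.701 with doublets kept, 0.0502 with finer clustering, 0.0440 for at least 3000 UMIs, 1.33 in the deep cluster without AML lung replicate 3 and -1.70 to 1.44 without 1 library. Car4 ranged from -0.0931 to 2.45 and Plet1 from -0.707 to 1.77 without 1 library, and Csf2ra in whole libraries from -0.0804 to 0.167. The thinned share of cells differed by -11.1 to 1.61 percentage points for Pparg, -0.304 to 1.81 for Bhlhe40 (-15.4 without thinning) and -1.38 to 1.89 for Bhlhe41 without 1 library.

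The labels number the libraries 1 to 3 in both groups. The deviations of same-numbered libraries correlated at r = 0.673, -0.152 and 0.645 in alveolar macrophage-like cells, and not every library correlated best with its own. The labels do not say whether same-numbered libraries share more than a number, and this was not tested. With the replicate block edgeR called 174 genes in alveolar macrophage-like cells (89.1% higher), 23 in the deep cluster, 1329 over all other cells and 94 in whole libraries, where Pparg and Bhlhe41 then had adjusted p-values of 0.0844 and 0.0824; no other call on the 10 genes changed.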
